A study of Drosophila melanogaster with 2 samples.

Results

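The regions described here are the intergenic binding sites of the CG18011 protein that lie away from start sites in Drosophila melanogaster embryos. They are the 289 peaks of the optimal IDR list whose summit lay more than 500 bp from every annotated transcript start and outside all annotated transcripts. IDR stands for irreproducible discovery rate, which measures how well the ranks of peaks agree between replicates. The members are 8.78% of the list, beside 2032 peaks within 500 bp of a start and 969 inside transcripts but away from starts. Ensembl models on dm6 were used, with transposable elements and pseudogenes left out. The peaks had been made by chromatin immunoprecipitation and sequencing of whole embryos aged 0 to 24 h, pooled from males and females, of a transgenic line that stably expresses CG18011 with GFP at its C terminus. Chromatin had been sonicated to 200 to 800 bp and precipitated with an antibody against GFP. Both libraries, biological replicates 1 and 2, carry the transgene and form 1 group. No library without the transgene and no control library was analysed here, all tissues and stages of the embryo are mixed, and the labels do not say whether the native gene is still present beside the fusion. The comparison made is therefore with 3484 candidates, peaks of the same class in the pooled list of both libraries that overlap no IDR peak. Of all 29999 pooled peaks on the 6 chromosome arms, 11.0% were in the IDR list, and of the 3848 intergenic ones away from start sites, 7.51% were. A further 75 pooled intergenic peaks overlap an IDR peak without being in the list and entered neither group.

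CG18011 encodes a zinc finger protein, a class of proteins whose fingers each contact a few base pairs, so that an array of fingers can read a long DNA sequence. Peaks between genes can mark enhancers, insulators or silencers, can mark promoters of transcripts that are not annotated, or can mark sites with no known regulatory role. Recruitment by DNA sequence is one way in which a protein comes to a site, and contact with other bound proteins or with open chromatin is another.

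The strongest of these intergenic sites held a shared sequence, shown here because the main comparison turns on it. A position weight matrix had been built from the 200 strongest IDR peaks that are not among the 289 and lie over 1000 bp from each of them, so that no member took part in it. Of the 200, 125 gave a site to the last round. It spans 26 positions, and at 17 of them 1 base made up at least 50 percent. Positions 7 to 11 read TAGCA and positions 14 to 22 read CAGCTTTTG, with GT at positions 1 and 2 and G at position 26. Both strands were searched within 100 bp of each summit. A match was a score that 1 percent of equally wide windows reached when centred 1000 bp to the left of the 2983 IDR peaks from which the matrix peaks were drawn. The sequences below, read 5′ to 3′ from RefSeq on dm6, are 13 of the 16 members with a match among the 20 strongest. The match is in capitals, with 6 bases on either side, and each site carries the name of the protein-coding gene whose start is nearest.
CG33777, 3L:4553545-4553582, forward strand: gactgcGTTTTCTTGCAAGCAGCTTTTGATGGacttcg
Glut3, 3R:16798602-16798639, forward strand: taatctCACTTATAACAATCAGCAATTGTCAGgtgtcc
CG5568, 3L:5869750-5869787, reverse strand: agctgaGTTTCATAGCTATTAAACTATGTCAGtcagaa
CG8483, 3R:13208635-13208672, forward strand: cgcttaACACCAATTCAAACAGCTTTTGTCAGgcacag
CG4702, 3R:12121385-12121422, forward strand: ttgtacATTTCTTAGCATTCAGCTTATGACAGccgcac
CG3168, X:6741220-6741257, reverse strand: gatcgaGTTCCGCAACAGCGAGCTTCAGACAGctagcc
CHES-1-like, X:7678964-7679001, reverse strand: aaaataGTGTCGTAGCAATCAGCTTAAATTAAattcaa
santa-maria, 2L:7452301-7452338, forward strand: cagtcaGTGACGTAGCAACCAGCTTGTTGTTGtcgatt
brv1, 3L:19483164-19483201, forward strand: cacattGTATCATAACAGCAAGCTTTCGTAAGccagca
jigr1, 3R:25652252-25652289, reverse strand: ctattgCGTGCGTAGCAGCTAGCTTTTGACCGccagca
CG6142, 3R:26137249-26137286, forward strand: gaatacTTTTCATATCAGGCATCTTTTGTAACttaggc
CG15631, 2L:4726188-4726225, forward strand: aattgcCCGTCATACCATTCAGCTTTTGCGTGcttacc
CG33777 (second summit), 3L:4554351-4554388, forward strand: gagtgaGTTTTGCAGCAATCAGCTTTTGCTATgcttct

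The second strongest member is shown in full because it had no match. Its window of 100 bp on each side of the summit, near RabGGTa, is given with its best-scoring stretch in capitals. That stretch read best on the reverse strand and scored 11.30 log2 units, against the threshold of 11.53.
RabGGTa, 3R:5126996-5127196, forward strand: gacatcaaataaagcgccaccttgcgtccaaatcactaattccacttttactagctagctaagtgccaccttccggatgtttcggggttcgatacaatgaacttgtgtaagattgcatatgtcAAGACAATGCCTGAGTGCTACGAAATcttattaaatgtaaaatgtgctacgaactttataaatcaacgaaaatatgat

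A matrix match was far more common at the members than at the candidates. It was found at 59 of 289 members, 20.4% (15.9 to 25.5), against 68 of 3484 candidates, 1.95% (1.52 to 2.47), with an odds ratio of 12.9 (two-sided Fisher's exact test, p = 4.71e-34). Grown from 20 positions, a setting chosen after seeing the data, the matrix gave a difference of 10.9 points in place of 18.5. The intervals, as all others given for shares, are 95% exact binomial (Clopper-Pearson) intervals and cover counting error only. Pooled peaks of every class outside the IDR list had a match in 1.57% of cases, and windows of the same width taken every 10000 bp along the arms in 0.891%, so that the candidates' share was close to that of other pooled peaks and the members' share was far above both. The matches sat on the summits. In the members' own flanks, 1000 bp to the left, 1 of 289 windows had a match, 0.346% (0.00876 to 1.91), and 59 members had a match at the summit only against 1 in the flank only (exact McNemar test, two-sided, p = 1.06e-16). The centre of the match lay a median of 12.5 bp from the summit, with quartiles of 4.5 and 23 bp, and within 25 bp in 45 of the 59. Of the 59 matches, 36 were on the forward strand.

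**Figure D1:**
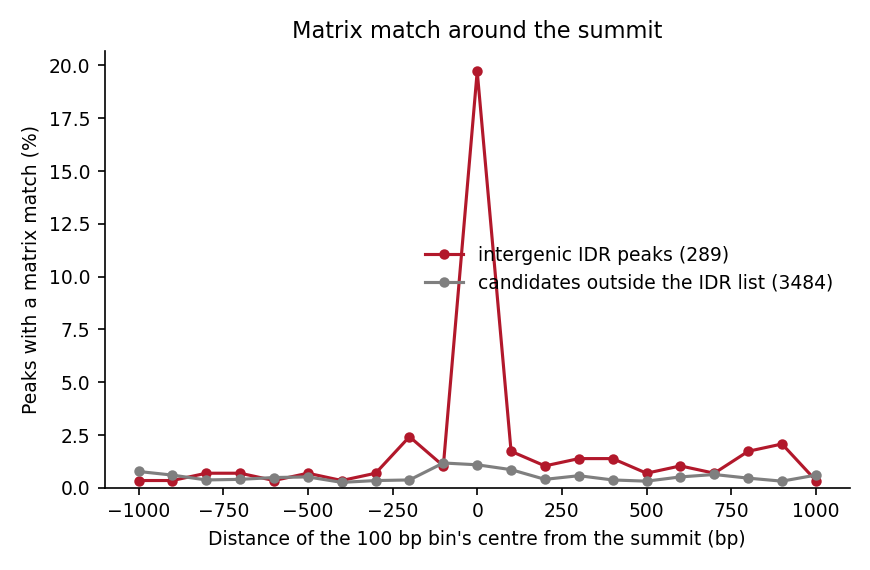
Share of peaks with a matrix match (vertical axis, %) in bins of 100 bp by the distance of the bin's centre from the summit (horizontal axis, bp), for the 289 intergenic IDR peaks and the 3484 candidates. The bin at the summit held a match in 19.7% of the members and 1.09% of the candidates, and no other bin exceeded 2.42% in the members.

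The matched sites varied among themselves. Of the 17 positions at which the consensus names a base, a match held a median of 13, with 10 in the least similar match and 16 in the most similar one. The A at position 15, counted from the first base of the consensus, was present in 59 of 59 matches and the G at position 16 in 55. The C at position 10 was found in 54 and the A at position 8 in 53. The run of T bases was looser, with the consensus base in 39 of 59 matches at position 20 and in 37 at position 21. The outermost named positions, 1 and 26, held their base in 37 and 42 matches. The least kept of the 17 was the C at position 14, in 34 matches. Since the sites were chosen by their score, agreement at the positions of highest weight in the matrix, 8, 10, 15, 16 and 17 among them, is part of the choice and is given as a description. The 8-base word from which the matrix was grown, AGCTTTTG, was intact in 16 of the 59 matches. On either strand it occurred in the windows of 25 members, 8.65% (5.68 to 12.5), against 54 candidates, 1.55% (1.17 to 2.02).

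Among the members the match went with the strength of the peak. Signal is the value that the authors' peak caller gave to each peak of the pooled libraries, on a scale that is not stated. The matrix had been built from strong peaks, with signals of 1081 or more, and could miss a sequence held by weaker peaks only. The comparison by strength is thus not independent of how the matrix was made. Members at or above their median signal had a match in 49 of 145 cases, 33.8% (26.2 to 42.1), against 10 of 144 weaker members, 6.94% (3.38 to 12.4), an odds ratio of 6.84 (two-sided Fisher's exact test, p = 1.05e-08). Most of the difference came from the top of the list. Of the 48 strongest members, with signals of 1175 to 44285, 37 had a match, 77.1% (62.7 to 88.0). The next 48 members had 9 matches, 18.8% (8.95 to 32.6), and the other groups, of 47 to 49 members each, had between 1 and 6. Among the candidates the strongest 871 had 25 matches, 2.87% (1.87 to 4.21), and the weakest 871 had 19, 2.18% (1.32 to 3.39), intervals that overlap. The groups between them had fewer, 15 or 1.72% (0.967 to 2.82) and 9 or 1.03% (0.474 to 1.95). The 59 members with a match had a median signal of 2672 and a median width of 563 bp, and the 230 without one had 258.2 and 416 bp. Still, 10 of the 59 lay below the median signal of the IDR list, so that weak sites with a match exist as well.

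**Figure D2:**
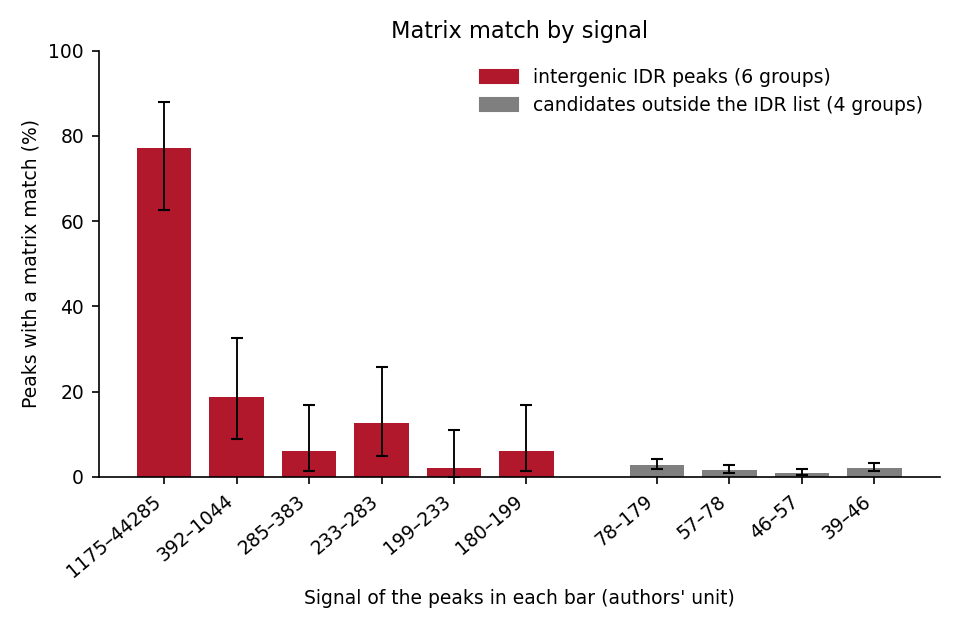
Share of peaks with a matrix match (vertical axis, %) by signal in the authors' unit (horizontal axis), for the 289 intergenic IDR peaks in 6 groups of 47 to 49 and for the 3484 candidates in 4 groups of 871, each from strong to weak. Bars are shares and whiskers 95% exact binomial intervals. A match was found in 77.1% of the strongest members and 2.87% of the strongest candidates. The matrix was built from strong IDR peaks that are not members.

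The members spanned a wide range of signal, from 179.9 to 44285 with a median of 284.5 and quartiles of 215.5 and 560.5, against a median of 56.8 in the candidates, which the threshold of the IDR list sets apart. A small number of sites held most of it. The 29 strongest members carried 75.5% of the members' summed signal, a share that was not computed for other IDR peaks. The 289 members are 8.78% of the IDR peaks and carried 14.6% of the summed signal of the list. Peaks at start sites, 61.8% of the list, carried 69.9%, and those in transcripts away from start sites, 29.5% of the list, carried 15.5%. The members' place among the strongest peaks was also counted. The members included 53 of the 329 strongest peaks of the list (those whose rank is within 10 percent of it), 18.3% (14.0 to 23.3) of the members. Among those strongest peaks were 10.5% (9.18 to 11.9) of the IDR peaks at start sites and 6.50% (5.03 to 8.24) of those in transcripts away from start sites. The median signals of these groups were close, with 284.5 in the members, 290.6 at start sites and 260.6 in transcripts.

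Both libraries put the strong sites in much the same order of size, which is in part set by how the sites were chosen. The IDR list rests on agreement of ranks between these libraries, and the sites named here were taken by their pooled signal. The values are therefore given as a description. Each library's signal was divided by its median over the IDR peaks, 64.6 in replicate 1 and 223 in replicate 2, to give a relative signal. The strongest member, in the peak at 2R:8572163-8573663 and 2283 bp from Cyp6a13, which encodes a cytochrome P450, had signals of 8528 in replicate 1 and 35899.8 in replicate 2, which are relative signals of 132 and 161 (mean 147 ± 20.5, SD, n = 2). The second, 991 bp from the start site of RabGGTa, the alpha subunit of Rab geranylgeranyl transferase (3R:5126559-5128218), had 6790 and 26687 (relative 112 ± 10.3, SD, n = 2). The third, near CG33777 (3L:4552842-4555046), had 5797 and 23243 (97.1 ± 10.3, SD, n = 2), in a peak that also holds its second summit. The site near Glut3, a gene named for glucose transport (3R:16798007-16799018), had 3876 and 15484 (64.8 ± 6.68, SD, n = 2). All these values lie far above the members' median relative signal of 1.02, in each library alone as in the mean. Among the 20 strongest members the SD between the libraries was 9.05 to 18.4% of the mean. Over all 283 members with a peak of both libraries at the summit it had a median of 13.4%, with quartiles of 7.65 and 23.6%, and a highest value of 105%. All of the 20 strongest had the higher relative signal in replicate 2.

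**Figure D3:**
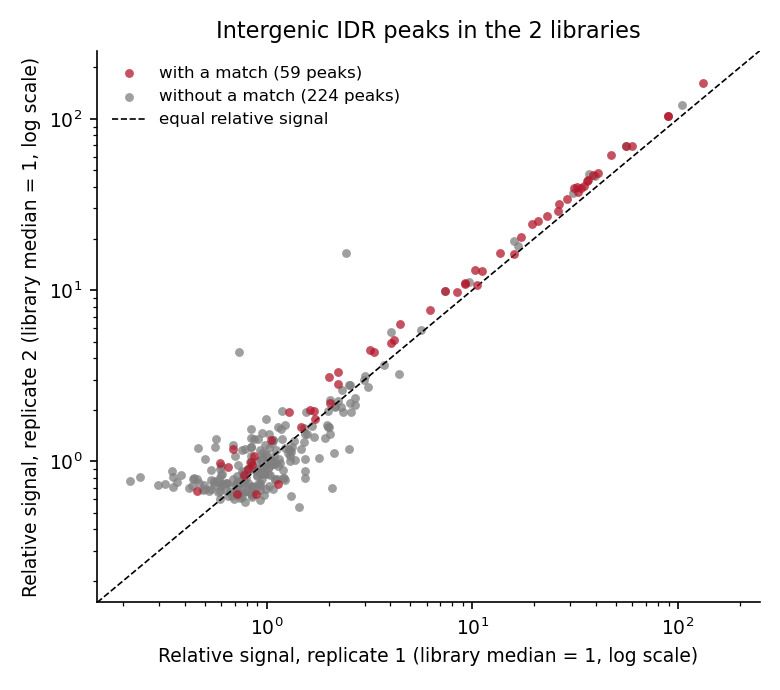
Relative signal in replicate 2 (vertical axis, log scale) against replicate 1 (horizontal axis, log scale), where 1 is the median of that library over IDR peaks, for the 283 intergenic IDR peaks with a peak of both libraries over the summit. Red points are the 59 members with a matrix match and grey points the 224 without one; the points above a relative signal of 10 in both libraries lie on 1 side of the dashed line of equality, with replicate 2 higher by 1.01 to 1.30 times in 34 of 34, and 27 of them are red.

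Not all members have a value of their own in each library. No peak of replicate 1 covered the summit in 5 members, 1.73%, against 2.13% of all IDR peaks. No peak of replicate 2 did in 1 member, 0.346%, against 0.699% of all IDR peaks. In 5 pairs, 10 members in all, both summits lie in the same peak of each library, so that the weaker summit takes the stronger one's value. The summit pairs near CG33777, CG5568 and Shab are among them. The 2 points farthest from the line of equality, near CG8519 (157 in replicate 1 and 3651 in replicate 2) and ppk24 (47.6 and 965), are summits 202 and 212 bp from another, stronger member, with which each has its replicate 2 value in common. They were chosen after their values were seen. Of all members, 225 overlapped, in each library, a peak among as many of its strongest as the IDR list holds, 77.9% (72.6 to 82.5). The share of all IDR peaks that did so was close, 75.3% (73.8 to 76.8). Among members with a match the number was 55 of 59, 93.2% (83.5 to 98.1), and among those without it was 170 of 230, 73.9% (67.7 to 79.5). Members with a match also had the higher signal, a median of 2672 against 258.2, and this measure counts strong peaks.

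The 20 strongest members lay on 5 arms, with 7 on 3R, 4 on 3L and 3 each on 2L, 2R and X. Of the 20, 16 had a match, 0 had their summit in masked sequence, and 7 lay upstream of the nearest protein-coding start site. Next in signal after the sites of Cyp6a13, RabGGTa, CG33777 and Glut3 came CG5568, CG8483, CG4702, CG3168, tej and BomBc3. Then followed CHES-1-like, santa-maria, brv1, psq, jigr1, CG6142, CG15631, upd2, C1GalTA and a second summit near CG33777. Several neighbours have known roles: tej acts in the germline piRNA pathway, BomBc3 is a member of the bomanin family of immune-induced peptides, santa-maria encodes a scavenger receptor for carotenoids, brv1 a channel of the TRP family, and C1GalTA a galactosyltransferase of mucin-type glycans. psq and CHES-1-like encode transcription factors, of the BTB and the forkhead class. Of the 20 sites, 6 lay within 1000 bp of a start site and 4 over 5000 bp from any. The BomBc3 site lay 6989 bp downstream of that gene's start and the CG15631 site 8246 bp downstream, while the santa-maria site lay 1036 bp upstream. The nearest gene is a label of the place and is not shown to be a target.

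The members without a match among the strongest were few and near 4 genes in the first 20. These were RabGGTa, tej, BomBc3 and upd2, the last a ligand of the JAK/STAT pathway. The tej site had relative signals of 37.1 in replicate 1 and 47.6 in replicate 2 (42.4 ± 7.47, SD, n = 2). BomBc3 had 39.4 and 46.5 (43.0 ± 5.03, SD, n = 2), and upd2 had 31.0 and 37.2 (34.1 ± 4.34, SD, n = 2). All lie within the range of the 16 with a match. The best scores of RabGGTa, tej, BomBc3 and upd2 were 11.30, 9.17, 10.90 and 5.72, against the threshold of 11.53, so that RabGGTa and BomBc3 fell just short of it while upd2 did not come near. On the other side, the match near CG8483 passed by little, with a score of 11.57. The count of members with a match therefore depends on the threshold, while its excess over the candidates was present at each threshold tried.

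The match was more common in the intergenic members than in other IDR peaks when peaks of all signals were pooled. For this comparison the matrix was built from 100 peaks on some of the arms and applied to the other arms, and the reverse, since peaks of the other classes had trained it. It then marked 55 of 289 members, 19.03% (14.7 to 24.0). Of 2032 IDR peaks within 500 bp of a start site it marked 142, 6.99% (5.92 to 8.18), for an odds ratio of 3.13 (Fisher's exact test, two-sided, p = 1.35e-09 after adjustment for 2 comparisons). Of 969 IDR peaks in transcripts away from start sites it marked 86, 8.88% (7.16 to 10.8), for an odds ratio of 2.41 (p = 6.00e-06 by the same exact test and adjustment). Built from 400 peaks in all, or grown from 20 positions (a setting chosen after seeing the data), the matrix marked 30 members, 10.4%. With 400 peaks the difference was 4.97 points from peaks at start sites and 5.32 from those in transcripts, against 12.0 and 10.2 points as reported, and both still passed.

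Above 10 times the median signal the classes stood in another order than in the pooled comparison, and below it in the same order. Above 10 times the median of the IDR list, a match was found in 26 of 37 members, 70.3% (53.0 to 84.1), in 86 of 97 peaks at start sites, 88.7% (80.6 to 94.2), and in 17 of 19 in transcripts, 89.5% (66.9 to 98.7). Up to that level it was found in 29 of 252 members, 11.5% (7.84 to 16.1), in 56 of 1935 peaks at start sites, 2.89% (2.19 to 3.74), and in 69 of 950 in transcripts, 7.26% (5.69 to 9.10). Strong peaks of every class thus mostly had a match. Members were also more often above that level, with 37 of 289, 12.8% (9.18 to 17.2), against 97 of 2032 peaks at start sites, 4.77% (3.89 to 5.79), and 19 of 969 in transcripts, 1.96% (1.18 to 3.05). The split by signal was not tested, and the matrix was here too built from the strongest peaks.

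**Figure D4:**
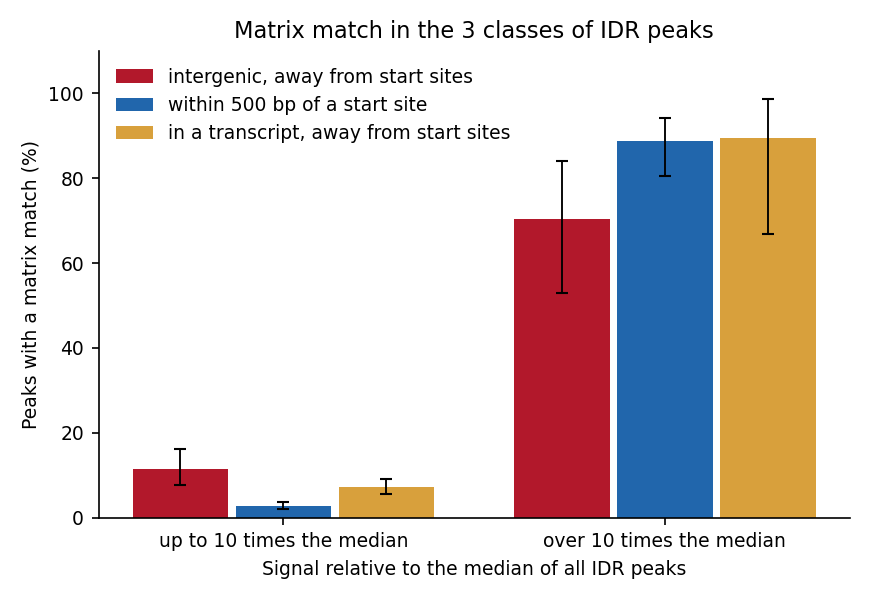
Share of IDR peaks with a match to the matrix built on other arms (vertical axis, %) up to and over 10 times the median signal of the IDR list (horizontal axis), for intergenic peaks away from start sites, peaks within 500 bp of a start site and peaks in transcripts. Bars are shares and whiskers 95% exact binomial intervals; over 10 times the median the shares are 70.3%, 88.7% and 89.5%, and up to it 11.5%, 2.89% and 7.26%.

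Members lay nearer to start sites than candidates did, within the region beyond 500 bp that defines both. The median distance to the nearest annotated start was 1835 bp in the members (quartiles 991 and 4339) and 2626 bp in the candidates (1332 and 5520). More than 5000 bp from any start site were 59 of 289 members, 20.4% (15.9 to 25.5), against 977 of 3484 candidates, 28.0% (26.6 to 29.6), with an odds ratio of 0.658 (two-sided Fisher's exact test, p = 0.00487). The gap between transcripts that holds the summit measured a median of 6545 bp in the members and 9545 bp in the candidates. With start sites excluded to 1000 bp, the difference in distance missed the threshold, at 27.4% of 215 members against 33.6% of candidates (Fisher's exact test, p = 0.0715).

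**Figure D5:**
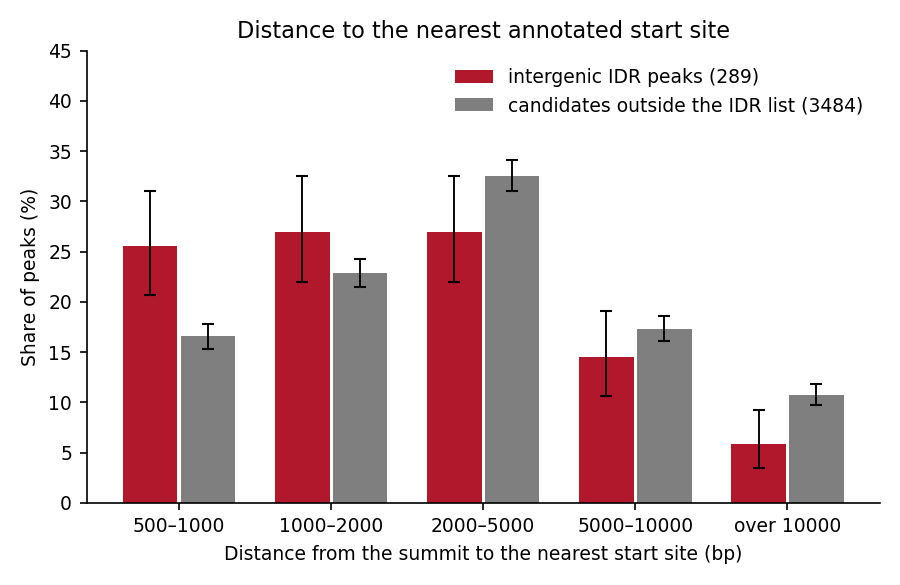
Share of peaks (vertical axis, %) by distance from the summit to the nearest annotated start site (horizontal axis, bp), for the 289 intergenic IDR peaks and the 3484 candidates. Bars are shares and whiskers 95% exact binomial intervals; 25.6% of the members and 16.6% of the candidates lay 500 to 1000 bp from a start site, and 5.88% and 10.7% over 10000 bp away.

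The rule's limit cuts through a continuous range of distances. Just inside it were the sites near CG3961 (signal 228.6) and CG3505 (186), both 502 bp from the start. Just outside it were the IDR peaks near CREG, at 498 bp with a signal of 1065, and near lncRNA:CR45292 and robl37BC, at 491 bp with 182. At the other end, the members farthest from any start site lay in long stretches without transcripts. The summit at X:23375296 was 83596 bp from the nearest start, that of the ribosomal RNA gene 2SrRNA:CR45864, and had a peak in replicate 2 (151) but none in replicate 1. The summits at 2R:1151196 and 2R:1150996 lay 79221 and 79021 bp from rl, which encodes the ERK MAP kinase. They had signals of 46.0 and 52.7 in replicate 1, and of 164 and 202 in replicate 2. All 3 are in masked sequence, and the last of them had a matrix match.

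The members were placed among genes much as the candidates were, by counts that were not tested. The transcripts on either side of the gap ran in the same direction for 141 members, 48.8% (42.9 to 54.7), and for 50.1% of candidates. They diverged for 80 members, 27.7%, and 26.7% of candidates, and converged for 68 members, 23.5%, and 23.1% of candidates. The summit was upstream of the nearest protein-coding start in 175 members, 60.6% (54.7 to 66.2), and in 65.3% (63.7 to 66.9) of candidates. The nearest start of any kind belonged to a gene of the models' ncRNA class in 76 members, 26.3%, and in 28.9% of candidates. That class leaves out tRNA genes, nearest for 5 members, 1.73%, and 2.27% of candidates. It also leaves out rRNA, snRNA and snoRNA genes, which were rarer. None of the 6 arms passed for a different share of members and candidates (two-sided Fisher's exact tests, adjusted p = 0.722 for each, with 0 at an unadjusted p under 0.05). Arm 3L held the most members, 77 of 289, or 26.6% (21.6 to 32.1), against 29.4% of candidates. Of the 289 members, 91 had another member within 10000 bp and 55 had another IDR peak within 1000 bp, so that members of such groups share a neighbourhood. These counts were not made for candidates or other IDR peaks, and do not show whether members lie closer together than those.

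Whether the neighbouring gene had an IDR peak at its own start site was also compared. It did for 48 of 289 members, 16.6% (12.5 to 21.4), against 439 of 3484 candidates, 12.6% (11.5 to 13.7), and this missed the threshold (odds ratio 1.38, two-sided Fisher's exact test, p = 0.0551). With the strongest peaks of 1 library, as many as the IDR list holds, in its place it passed, at 17.3% against 12.6% without replicate 1 (Fisher's exact test, p = 0.0334) and 16.0% against 6.26% without replicate 2 (p = 2.96e-09). Sites with such a neighbour among the 20 strongest were 5, counted by the nearest protein-coding gene. By that count they were 50 of all 289 members, 17.3% (13.1 to 22.2).

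The members' windows were poorer in G and C, and their summit base was less often masked. GC content in the window had a median of 37.3% in the members (quartiles 33.3 and 42.3) and 40.3% in the candidates (34.8 and 45.8). The summit fell in lower-case bases of the RefSeq genome, which mark repeats and low-complexity sequence, in 44 of 289 members, 15.2% (11.3 to 19.9), against 754 of 3484 candidates, 21.6% (20.3 to 23.0), an odds ratio of 0.650 (two-sided Fisher's exact test, p = 0.0106). Over the whole window the masked share was alike, with a median of 16.9% in the members (quartiles 8.96 and 26.9) and 16.4% in the candidates (9.45 and 27.9). The call on the summit base rests on both libraries: it was 17.3% against 20.1% without replicate 1 (Fisher's exact test, p = 0.277) and 18.1% against 19.5% without replicate 2 (p = 0.568). Masking differed between members with and without a match, with 1 of 59 against 43 of 230 summits, 1.69% (0.0429 to 9.09) and 18.7% (13.9 to 24.3), a split that was not tested. Annotated transposable elements held 0 of 289 member summits, 0% (0 to 1.27), and 50 of 3484 candidate summits, 1.44% (1.07 to 1.89), intervals that overlap. The sources used here do not say how reads from repeated sequence were placed, and its part in these shares was not tested.

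Of 13 words of known Drosophila factors, 2 passed as more common at the members, and neither passed under every alternative. Words were searched on both strands within 100 bp of the summit. The Su(Hw) word TGCATACTT was in 8 of 289 members, 2.77% (1.20 to 5.38), against 0.718% of candidates and 0.412% of windows taken every 10000 bp (two-sided exact test of Fisher, p = 0.0357 after adjustment for the 13). The CTCF word AGNNGGCGC was in 14 members, 4.84% (2.67 to 7.99), against 2.07% of candidates and 1.63% of such windows (same exact test, adjusted p = 0.0396). Su(Hw) and CTCF both bind DNA through zinc fingers and act at boundaries between chromatin domains. In no member did either word overlap the matrix match, and 2 of the 8 and 2 of the 14 members also had a match. The sites near brv1 and upd2 hold the Su(Hw) word, and those near RabGGTa, psq and upd2 the CTCF word. Both calls rest on few sites: without replicate 1 neither passed (Fisher's exact test, adjusted p = 0.157 for Su(Hw) and 0.0559 for CTCF), and without replicate 2 Su(Hw) did not (adjusted p = 0.0527) while CTCF did (0.00518).

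The other 11 words did not pass in the reported setting. The TATA box, TATAAA, was in 92 members, 31.8% (26.5 to 37.5), against 25.1% of candidates and 21.6% of windows (same exact test, adjusted p = 0.0611), and it overlapped the match in 4 members. It passed without replicate 2, at 34.0% against 25.5%, and with a limit of 250 bp, at 32.1% against 25.9% (exact tests, adjusted p = 0.00518 and 0.0439). The Pho word GCCATNTT was in 13 members, 4.50%, against 3.87% of candidates, and runs of A, AAAAAAAA, in 37, 12.8%, against 15.8%. The CA repeat ACACACAC was in 8 members, 2.77%, against 5.11%, and overlapped the match in 1. The GAGA factor word GAGAGAG was in 6 members, 2.08%, against 2.64%. The E-box CACGTG was likewise in 6 members, 2.08%, against 2.64%. The GATA word AGATAAG was in 7 members, 2.42%, against 2.78%. The DRE word TATCGATA and the Zelda word CAGGTAG were in 4 members each, 1.38%, against 0.746% and 0.574%. The word GGTCACAC, Motif 1 of core promoters, was in 2 members, 0.692%, against 0.316%. The BEAF-32 word was in 0 members, 0% (0 to 1.27), against 0.172%. Adjusted p-values of these 10 words were 0.277 to 1 (two-sided Fisher's exact tests). No match says only that these letters are not in the window.

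Few members lay next to the genes that were listed. The lists hold from 24 to 179 genes found in the models, and a list need not hold its whole family. The nearest protein-coding gene was a homeobox or patterning factor for 8 members, 2.77% (1.20 to 5.38), and for 2.07% of candidates. Its 3 strongest sites were near lbl, which encodes a homeobox factor, and slp2 and bin, which encode forkhead factors. The lbl site had relative signals of 1.62 and 2.00 in replicates 1 and 2 (1.81 ± 0.270, SD, n = 2), slp2 had 1.80 and 1.04, and bin had 1.30 and 1.17. Signalling ligands and receptors were nearest for 4 members, 1.38%, and 1.64% of candidates. Among them upd2 stood far above ths, an FGF ligand, at 2.23 and 3.32, and fz, a Wnt receptor, at 1.47 and 1.19. The ths and lbl sites had a match, and so did the stronger Shab site and Ir7a, described next.

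The list of ion channels and neurotransmitter receptors holds 55 genes found in the models and leaves out some channels, brv1 among them. Its genes were nearest for 3 members, 1.04%, and 0.603% of candidates. They were 2 summits near Shab, a voltage-gated potassium channel, in the same library peaks with relative signals of 7.35 and 9.92, and the calcium channel gene Ca-alpha1T at 1.10 and 0.786. Detoxification genes (cytochrome P450, glutathione S-transferase and UDP-glycosyltransferase genes) were nearest for 3 members, 1.04%, and 1.61% of candidates. Besides Cyp6a13, the strongest of the members, these were Cyp308a1 at 1.02 and 0.973 and Cyp6v1 at 1.12 and 0.784, both close to the members' median. Chemosensory receptors were nearest for 4 members, 1.38%, and 1.32% of candidates. Their strongest sites were near Ir7a at 1.71 and 1.76, Gr89a at 0.999 and 0.995, and Gr93d at 0.494 and 0.727.

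Cuticle proteins were nearest for 2 members, 0.692%, and 0.861% of candidates, with Ccp84Aa at 2.23 and 2.26 and Cpr76Ba at 2.04 and 1.45. Cytosolic ribosomal proteins were nearest for 2 members, 0.692%, and 0.344% of candidates, with RpS23 at 0.603 and 0.837 and RpS15Aa at 0.777 and 0.743. Zinc finger regulators, of which the list names only 24, were nearest for 2 members, 0.692%, and 0.287% of candidates. Of these the jing site, with a match, had relative signals of 15.9 and 16.3 (16.1 ± 0.256, SD, n = 2), and lola had 0.899 and 0.835. In each of the 8 lists the members' interval included the candidates' share, and no list was tested.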

How the data were processed

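Peak lists of 2 libraries were used on dm6: 1 list per library, a list of the pooled libraries with 30000 peaks, and the optimal IDR list. The deposited signal of each peak is the value of the authors' peak caller. The sources used here do not give its scale, the caller and its version, the threshold of the IDR list or the number of reads, so the precision of a single peak is unknown. The deposited lists were made from alignments and a control, per the text deposited with them. The other deposited column used, the summit's offset, gives its position in base pairs.

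From these files summits were set against Ensembl release 115 (BDGP 6.54) and the RefSeq dm6 sequence with scipy 1.17.1, pysam 0.24.0, pandas 2.3.3 and numpy 2.4.6 under Python 3.11.15, and drawn with matplotlib 3.10.9. A library's value at a member is its strongest peak over the summit. The matrix was grown over 40 positions around the 8-base word most in excess within 50 bp of the summits, in 20 rounds, and trimmed at 0.25 bits. Shares of peaks were compared with Fisher's exact test, two-sided, at a threshold of 0.05. Over 2 classes, 6 arms or 13 words, p-values were adjusted after Benjamini and Hochberg. Peaks are the units, since both libraries form 1 group. Neighbouring peaks are not independent, and p-values compare these lists, not conditions. Continuous measures are described without a test.

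Named are the 20 members of highest signal, the 2 nearest to the limit and the 2 IDR peaks just under it, the 3 strongest members of each of 8 gene lists (homeobox and patterning, signalling, ion channels, detoxification, chemosensory receptors, cuticle, ribosomal proteins, zinc fingers), and the 3 farthest from a start site. The members, lists, words and tests were chosen with earlier results of these data known. Alternatives were other limits, gene models, candidates, overlaps, windows, thresholds, matrix sizes, 1 peak per interval, the stronger members, each library alone with as many of its strongest peaks as the IDR list holds, and the dm3 ranks. Sequences of 3 of the 16 members with a match among the 20 strongest are not reported here. The steps were tested on simulated data.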

Additional observations from a re-analysis of the deposited data

How the results depend on the processing

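Across 89 repeats of the 5 matrix comparisons, all kept their direction and passed, with differences of 4.97 to 33.8 percentage points. Settings that change only the candidates leave the comparisons without candidates as they were, so that some of the 89 could not differ. The repeats also share most of their peaks and are not independent. The settings with a matrix grown from 20 and from 30 positions were chosen after seeing the data. The lowest, 4.97, was that from peaks at start sites with a matrix from 400 peaks. The difference between members and candidates was 10.9 points at the lowest, with 20 positions, and 31.8 at the highest, with the stronger members alone. No arm passed under the 9 settings tried, and the dm3 list gave a median signal of 290.9 for the same ranks.

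The calls other than the matrix were less stable, and the cause was not tested. The difference in masked summits was -3.58 points with a limit of 1000 bp and -2.87 and -1.40 with a replicate left out, none of which passed. The difference in members over 5000 bp from a start site was -6.17 points with a limit of 1000 bp and no longer passed. The difference in bound neighbouring genes passed at 4.68 points with 1 peak per interval, at 4.67 and 9.70 with a replicate left out, and at 32.0 with a limit of 250 bp, where peaks within 500 bp of a start site bind that gene by construction. Of the words, 2 passed in the reported setting, 1 with a limit of 1000 bp, with candidates at or above their median signal and with the stronger members, 0 with transposable elements and pseudogenes in the models, and 0 to 2 with a replicate left out. The words were not the same throughout: of 9 settings Su(Hw) passed in 4, CTCF in 5 and the TATA box in 2, which were the limit of 250 bp and the fit without replicate 2.

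No paired analysis was possible because the libraries form 1 group. Precision is limited by the number of peaks, above all for the words, and no depth was at hand for single peaks.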
